A study of Mus musculus with 8 samples.

Results

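The collagen genes and the matrix genes typical of fibroblasts were followed in RNA from F4/80-enriched cells of the mouse inguinal fat pad. The genes were chosen by symbol: every gene named as a collagen alpha chain, together with Dcn, Lum, Fbn1, Sparc, Dpt, Mfap5, Pi16, Pdgfra, Clec3b, Gsn, Serpinf1, Fn1 and Vcan. Of the 56748 rows of the deposited table, 57 carried such a symbol and 55 of these had at least 10 counts summed over the 8 libraries, 42 collagen genes and the 13 others. The 4 Aldara libraries came from WT female mice that received 62.5 mg of Aldara, a cream whose active agent, imiquimod at 5%, activates Toll-like receptor 7, on the shaved lower back on 3 consecutive days. The 4 Vehicle libraries came from WT female mice treated with Boots Aqueous Cream/10% Vaseline Lanette Cream in the same volume. All mice were killed 24 h after the last application, and their age is not stated. Each library pooled the cells of 6 fat pads, about 30000 cells selected with F4/80 beads, from preparations with more than 90% F4/80+CD64+ cells by flow cytometry. The labels do not tie the libraries to distinct animals, and the spread behind each p-value is therefore that of these pools, which may be technical.

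Collagens are proteins whose alpha chains wind into a triple helix, and each family builds a different structure. Fibrillar collagens give connective tissue its tensile strength, type IV collagens form the sheet of the basement membrane under epithelium, endothelium and around adipocytes, and type VI collagen forms beaded filaments near cells. Fibroblasts and the adipocyte precursors of fat are the usual source of fibrillar collagens, decorin and lumican. Epithelial, endothelial, mural and Schwann cells make type IV collagens as well.

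Total counts ranged from 19537607 to 34471508 per library. The amplification kit does not mark the strand, so reads of genes that overlap cannot be told apart. The fibroblast markers Col3a1, Dcn and Lum were detected in all 8 libraries although the cells had been selected as macrophages. The 10 luminal epithelial markers summed to between 15304 and 20570 CPM (counts scaled to library size with TMM factors) in Vehicle and to between 13761 and 17604 CPM in Aldara. The 13 macrophage markers summed to between 1662 and 3450 CPM in Vehicle and to between 3912 and 10298 CPM in Aldara. Per kilobase of exon, the epithelial keratin gene Krt8, the highest of the luminal markers, stood at 2116 ± 477 CPM in Vehicle and 2132 ± 299.5 after Aldara. Adgre1, which encodes F4/80, stood at 25.5 ± 6.30 and 299 ± 147. On this scale the 13 macrophage markers ran from 2.27 (Ptprc) to 417 (Lyz2) in Vehicle. After Aldara they ran from 8.25 to 1084, with the same genes at the ends. These levels go against the purity given in the labels, although RNA levels and a share of cells by flow cytometry are different measures. Which cells the matrix transcripts came from was not tested. In bulk RNA, fewer cells of a type and less RNA per cell cannot be told apart, and this holds for every difference given here.

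Part of the matrix genes fell after Aldara, among them chains of several collagen families, Dcn, Lum, Sparc and Fn1. Of the 55 members, 49 passed the filter on low counts, and 19 of these fell (38.8%) and 1 rose at an adjusted p under 0.05 (edgeR quasi-likelihood test, adjusted over all 16780 genes tested). Among all genes tested, 3.86% fell and 6.98% rose, which is 647 and 1171 genes. With upper-quartile scaling these became 990 and 979 genes, and 20 members fell and 1 rose. The steepest falls belonged to Col6a3, Col3a1, Col6a6, Lum, Col1a2 and Col1a1, with log2 fold changes (Aldara minus Vehicle) from −2.73 to −1.61. Col8a1, a chain of network-forming type VIII collagen, was the member that rose. The median log2 fold change was −0.67 over the 49 tested members and 0.01 over all genes tested. All 4 Aldara libraries lay below all 4 Vehicle libraries for 19 of the 49 members, against 7.79% of all genes tested, and above them for 1, against 9.97%.

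**Figure D1:**
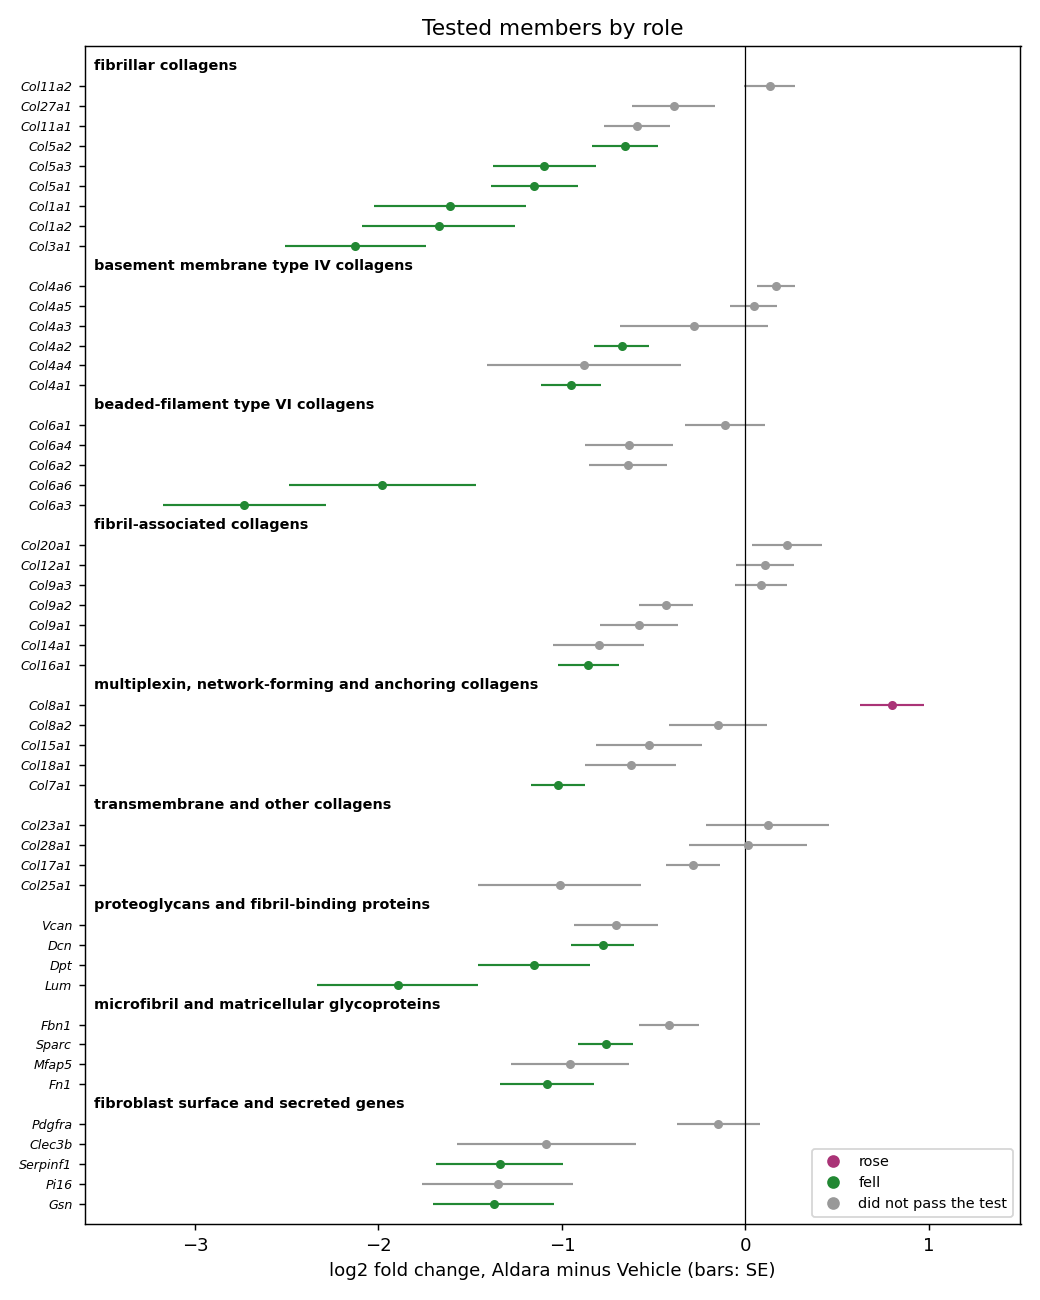
Log2 fold change (Aldara minus Vehicle, x axis) of the 49 tested members, grouped by role, with bars for the standard error and colour for the outcome of the test. The fibrillar chains Col3a1, Col1a2 and Col1a1 and the type VI chain Col6a3 lie far to the left, and Col8a1 is the coloured point to the right of 0.

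How firmly each call stood differed between members. The labels do not say what the replicate numbers mean, and the main test left them out. In an alternative fit with the replicate number as a block, all 19 members fell and 7 more did, which makes 26 members. In that fit 6.14% of all genes tested fell and 9.21% rose. Without any 1 of the 8 libraries, Col3a1, Col4a1, Col6a3, Col7a1, Col16a1, Dcn and Sparc stayed past the threshold, and these 7 did so in all 15 alternative fits. The number of members that fell was 12 without Vehicle replicate 1, 11 without Vehicle replicate 2, and 9 without Aldara replicate 2, 3 or 4. Calls were lost over all genes tested too, where 415, 412, 353, 323 and 441 genes fell in these fits, in this order, against 647.

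The members took 0.414%, 0.313%, 0.232% and 0.291% of all counts in Vehicle replicates 1 to 4 and 0.224%, 0.192%, 0.190% and 0.154% in Aldara replicates 1 to 4. Vehicle replicate 1 had the largest share and Aldara replicate 4 the smallest, and the lowest Vehicle library lay just above the highest Aldara library. Fibrillar collagens made up between 0.0247% and 0.0585% of counts in Vehicle and between 0.00855% and 0.0168% in Aldara. Type IV collagens were the larger family, with between 0.0589% and 0.0907% in Vehicle and between 0.0468% and 0.0593% in Aldara.

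**Figure D2:**
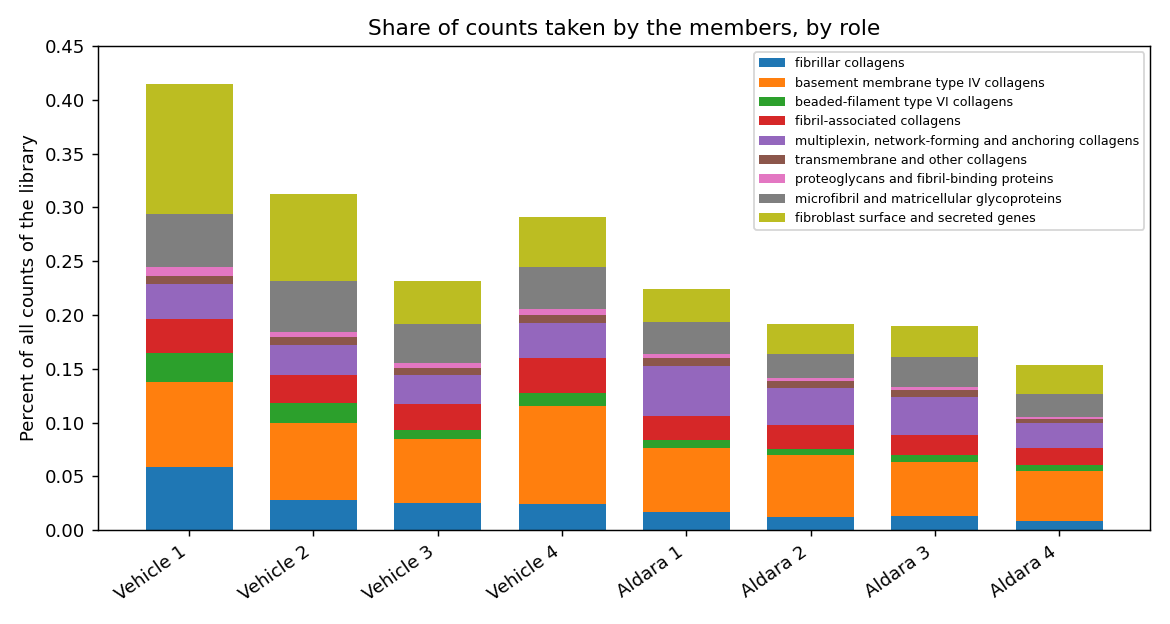
Percent of all counts of each library (y axis) taken by the members, stacked by role, for Vehicle replicates 1 to 4 and Aldara replicates 1 to 4. The bars run from 0.414% in Vehicle replicate 1 to 0.154% in Aldara replicate 4, and the layer of fibroblast surface and secreted genes is mostly Gsn.

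Sequence upstream of the start sites was read for the members with an entry in the RefSeq promoter table (GRCm38.p6, the build the submitters name as mm10). The table held 42 of the 55 members and 14 of the 19 that fell, some with more than 1 start. CCAAT and TATAA, 2 short sequences of many promoters, were searched on both strands in the 250 bases before each start, and no member had the 2 overlapping. CCAAT was present in 9 of 16 promoters of the members that fell (56.2%), in 9 of 30 promoters of members not called (30%) and in 33.8% of the 32851 promoters of the table. TATAA was present in 2 of the 16 promoters of members that fell (12.5%) and in 22.8% of all promoters. These are descriptions with no test, and several members share a locus. To show, for collagens that fell together, where CCAAT (or ATTGG, its reverse complement) stands, 30 bases are printed for each of 6 genes, 5′ to 3′ on the strand of the gene, with that motif in capitals. The motif begins 109 bases before the annotated start in Col1a2, 122 in Col5a3, 113 in Col16a1, 145 in Col4a1, 32 in Col4a2 and 249 in Col7a1.
Col1a2, chr6:4505497-4505526, + strand: aaaagaatggaaCCAATttaagaagccccg
Col5a3, chr9:20815172-20815201, − strand: gatctcagccagCCAATcagcgcgtggtgc
Col16a1, chr4:130047715-130047744, + strand: cggcggtgcaggCCAATggccagtgcctcc
Col4a1, chr8:11312954-11312983, − strand: tgcttgcccgggATTGGcgagccaaggggc
Col4a2, chr8:11312761-11312790, + strand: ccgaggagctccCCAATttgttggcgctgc
Col7a1, chr9:108953336-108953365, + strand: cATTGGtcactctaactagaaagcagtcaa
The distances are similar in Col1a2, Col5a3 and Col16a1, and are 145, 32 and 249 bases in Col4a1, Col4a2 and Col7a1. The 6 genes were picked because they hold the motif, and only the match farthest upstream was placed. No shared position can be read from them. In GENCODE M21 the stretch of Col1a2 overlaps an exon of Col1a2 itself, that of Col16a1 an exon of Gm12963, that of Col4a1 an exon of Col4a2 and that of Col4a2 an exon of Col4a1.

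For contrast, the 130 bases before the start are shown for Col3a1, the fibrillar chain with the steepest fall, and for Col8a1, the member that rose. In Col3a1 the capitals mark overlapping matches to TATAA on both strands, which begin 118 bases before the start. Neither motif occurs in the stretch of Col8a1, which says only that these letters are not in this window.
Col3a1, chr1:45311408-45311537, + strand: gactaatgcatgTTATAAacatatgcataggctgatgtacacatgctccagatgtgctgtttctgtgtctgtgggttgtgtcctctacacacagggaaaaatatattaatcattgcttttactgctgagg
Col8a1, chr16:57754738-57754867, − strand: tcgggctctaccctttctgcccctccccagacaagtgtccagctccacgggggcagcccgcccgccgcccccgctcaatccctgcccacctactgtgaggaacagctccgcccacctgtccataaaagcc

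Of the 9 tested fibrillar collagens 6 fell. Col3a1 (ENSMUSG00000026043), the only chain of type III collagen, measured 229, 96.6, 88.2 and 79.8 CPM in Vehicle replicates 1 to 4 and 40.8, 24.5, 30.1 and 17.4 CPM in Aldara replicates 1 to 4. Every Aldara library lay below every Vehicle library, and Vehicle replicate 1 stood far above the other Vehicle libraries. The mean fell from 123 ± 70.7 to 28.2 ± 9.86 CPM (SD, n = 4 each), a log2 fold change of −2.13 (SE 0.38, adjusted p = 0.0102). Without Vehicle replicate 1 the log2 fold change was −1.64 (adjusted p = 0.0120, between 0.0120 and 0.0390 over the 8 left-out libraries).

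Col1a1 and Col1a2 encode the chains of type I collagen, the main fibril of connective tissue. Col1a1 measured 143, 56.9, 48.6 and 46.0 CPM in the Vehicle libraries and 34.5, 21.2, 27.1 and 13.3 CPM in the Aldara libraries, and Col1a2 followed the same order of libraries within Vehicle. Col1a1 fell by 1.61 (SE 0.42, adjusted p = 0.0397) and Col1a2 by 1.67 (SE 0.42, adjusted p = 0.0345) on the log2 scale. That on Col1a1 was lost without Vehicle replicate 1 or 2 or without any 1 of the 4 Aldara libraries (adjusted p between 0.0430 and 0.107 over the 8 left-out libraries), and its log2 fold change moved to −1.07 without Vehicle replicate 1. That on Col1a2 was lost without Vehicle replicate 2 or any 1 of the 4 Aldara libraries (adjusted p between 0.0270 and 0.108), with −1.09 without Vehicle replicate 1. Both calls were also lost when low counts were not filtered, with an adjusted p of 0.115 for Col1a1, and both were kept with the replicate block (adjusted p = 0.00245 and 0.0011).

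Type V collagen is a minor partner that controls the width of type I fibrils, and its 3 chains fell together. Col5a1 went from 24.1 ± 9.59 to 10.8 ± 1.2 CPM (−1.15 on the log2 scale, SE 0.24, adjusted p = 0.0148), and this call did not hold without Aldara replicate 4 (adjusted p = 0.0524, between 0.0114 and 0.0524 over the 8 left-out libraries). Col5a2 went from 24.6 ± 5.11 to 15.6 ± 3.41 CPM (−0.66, SE 0.18, adjusted p = 0.0408) and Col5a3 from 11.6 ± 5.21 to 5.39 ± 0.736 CPM (−1.10, SE 0.28, adjusted p = 0.0326). For each of these 3 genes the groups did not overlap. The call on Col5a2 was lost without Vehicle replicate 1, 2 or 4, and likewise without Aldara replicate 2, 3 or 4 (adjusted p between 0.0150 and 0.104), and that on Col5a3 without Vehicle replicate 1 or 2, and likewise without Aldara replicate 2, 3 or 4 (between 0.0225 and 0.0932). The remaining tested fibrillar chains, Col11a1, Col11a2 and Col27a1, did not pass the test, with log2 fold changes between −0.59 and 0.13. Of these, Col11a1 did not overlap between the groups (−0.59, SE 0.18, adjusted p = 0.057). It passed with DESeq2 (adjusted p = 0.0186), with upper-quartile scaling (0.0436) and without Vehicle replicate 3 or Aldara replicate 1.

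**Figure D3:**
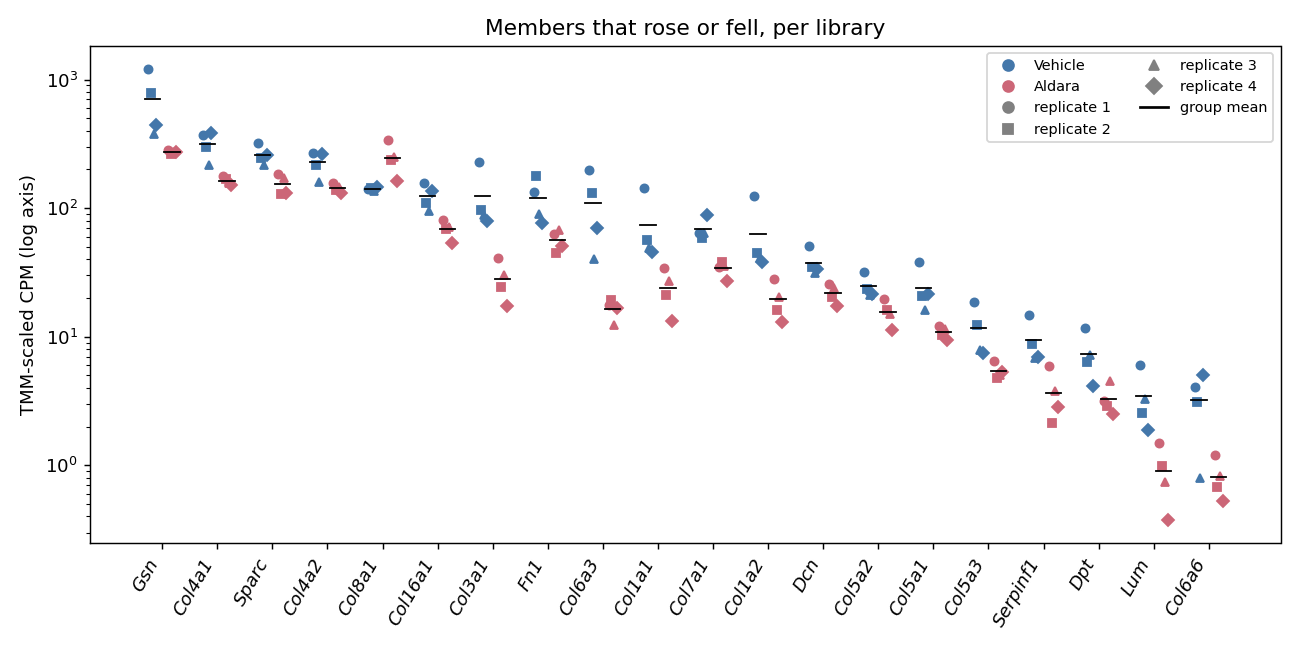
TMM-scaled CPM (log axis) of the 20 members that rose or fell, per library, with Vehicle in blue, Aldara in red, a symbol for each replicate number and a black line for the group mean. Vehicle replicate 1 (blue circle) stands at 229 CPM for Col3a1 against 96.6 CPM or less in the other Vehicle libraries, and Col8a1 is the member whose red points lie above the blue ones.

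Within a library, the ratio of 2 chains does not depend on the scaling, and ratios are given per kilobase of exon. They were chosen after the levels were seen and carry no test. Col1a1 to Col1a2, the chains of 1 protein, kept a ratio between 2.17 and 2.39 in Vehicle and between 1.92 and 2.52 in Aldara, so the groups overlapped. Col3a1 to Col1a1 did not overlap, with 1.07, 1.13, 1.21 and 1.16 in Vehicle and 0.790, 0.773, 0.742 and 0.875 in Aldara. Col3a1 to Dcn likewise lay between 1.41 and 2.70 in Vehicle and between 0.602 and 0.942 in Aldara. Vehicle replicate 1, which stood apart in the level of all 3 fibrillar chains, was the lowest Vehicle library for Col3a1 to Col1a1.

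The type IV collagens of basement membranes divided by chain. Col4a1 and Col4a2, which assemble into the common basement membrane trimer, fell, whereas Col4a5 and Col4a6 did not pass the test. Col4a1 measured 368, 297, 217 and 386 CPM in the Vehicle libraries and 179, 169, 156 and 150.3 CPM in the Aldara libraries, and Col4a2 measured 268, 216, 161 and 264 CPM and then 156, 139, 145 and 130.3 CPM. The Aldara libraries were close to each other and lay below every Vehicle library for both genes, with Vehicle replicate 3 the lowest of its group. Col4a1 fell by 0.95 (SE 0.16, adjusted p = 0.00627) and Col4a2 by 0.67 (SE 0.15, adjusted p = 0.0171) on the log2 scale. The call on Col4a2 was lost without Aldara replicate 3 (adjusted p = 0.0501, between 0.00445 and 0.0501 over the 8 left-out libraries).

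Col4a5 and Col4a6 form the trimer of some epithelial and smooth muscle basement membranes. Col4a5 measured 106, 116, 106 and 154 CPM in the Vehicle libraries and 132, 139, 111 and 116 CPM in the Aldara libraries (log2 fold change 0.04, SE 0.13, adjusted p = 0.875). Col4a6 measured 89.9 ± 9.03 and 101 ± 12 CPM (0.17, SE 0.11, adjusted p = 0.361). The libraries of the 2 groups overlapped for both. Col4a3 and Col4a4, the chains best known from the kidney glomerulus, were below 2 CPM in every library and did not pass the test. The ratio of Col4a1 to Col4a5 per kilobase lay between 1.83 and 3.13 in Vehicle and between 1.10 and 1.27 in Aldara, and that of Col4a1 to Col4a2 between 1.19 and 1.30 and between 0.958 and 1.08, with no overlap in either.

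These genes lie in pairs on the genome. In GENCODE M21 the starts of Col4a1 (chr8:11198423-11312826, − strand) and Col4a2 (chr8:11312805-11449287, + strand) are 21 bases apart and their first exons overlap by 22 bases. Col4a5 (chrX:141475385-141689234, + strand) and Col4a6 (chrX:141165403-141474076, − strand) start 1309 bases apart, and Col4a3 and Col4a4 72 bases apart on chromosome 1. The members of each pair are read in opposite directions. Col4a1 shared 0.295% of its exon bases with other genes and Col4a2 0.982%.

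Type VI collagen, which links cells and fibrils, showed the widest spread of fold changes among its chains. Its alpha 3 chain Col6a3 (ENSMUSG00000048126) measured 197, 131, 40.4 and 70.4 CPM in the Vehicle libraries and 17.5, 19.2, 12.4 and 16.7 CPM in the Aldara libraries. The Vehicle libraries differed widely from each other, yet the lowest of them lay above the highest Aldara library. Col6a3 fell by 2.73 on the log2 scale (SE 0.44, adjusted p = 0.00687), the steepest fall of any tested member, and by between 2.29 and 3.01 over the alternative fits. Its partner Col6a1 measured 38.3, 27.5, 22.3 and 20.5 CPM in the Vehicle libraries and 30.5, 23.3, 28.3 and 18.1 CPM in the Aldara libraries, with overlapping groups. Col6a1 differed by −0.11 on the log2 scale (SE 0.22, adjusted p = 0.805) and by 0.10 without Vehicle replicate 1.

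The ratio of Col6a3 to Col6a1 per kilobase was 1.88, 1.74, 0.662 and 1.26 in Vehicle and 0.210, 0.302, 0.160 and 0.337 in Aldara. The other partner, Col6a2, measured 24.9 ± 8.4 and 15.9 ± 2.56 CPM and did not pass the test (log2 fold change −0.64, SE 0.21, adjusted p = 0.0834, and 0.0107 with the replicate block). The ratio of Col6a1 to Col6a2 was between 1.96 and 2.27 in Vehicle and between 2.72 and 3.33 in Aldara. The low-abundance chain Col6a6 fell from 3.24 ± 1.81 to 0.807 ± 0.285 CPM (−1.98, SE 0.51, adjusted p = 0.0344). Its groups overlapped, since Vehicle replicate 3 stood at 0.791 CPM, and the call was lost without Vehicle replicate 1, 2 or 4, and likewise without Aldara replicate 2, 3 or 4 (adjusted p between 0.00445 and 0.0969 over the 8 left-out libraries) and with limma voom.

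**Figure D4:**
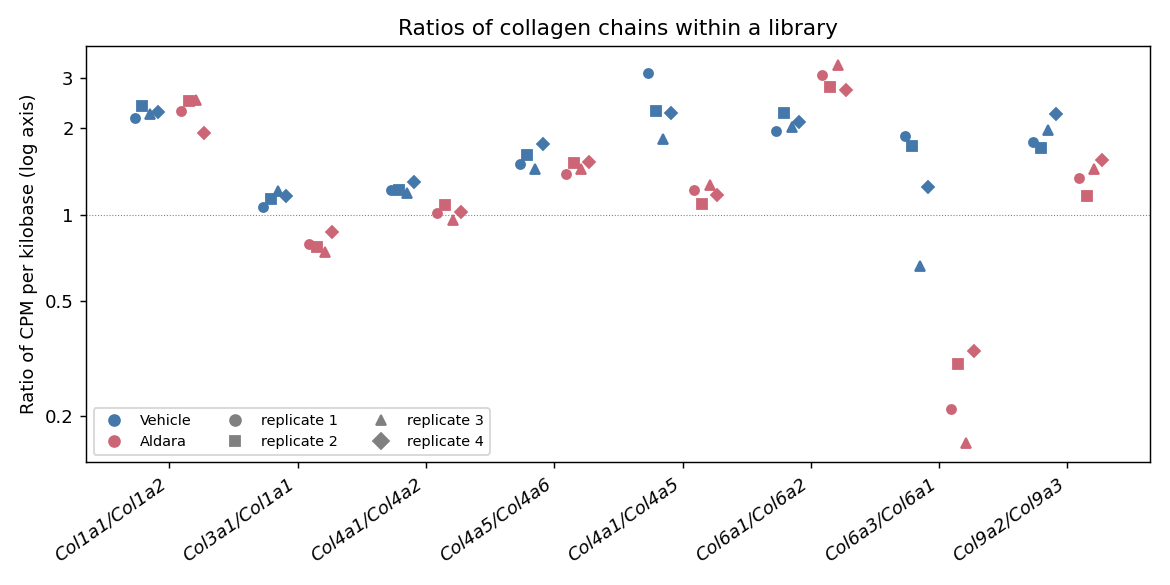
Ratio of the levels of 2 collagen genes within each library (CPM per kilobase of exon, log axis), Vehicle in blue and Aldara in red, with a symbol for each replicate number. Col1a1/Col1a2 and Col4a5/Col4a6 overlap between the groups, whereas Col6a3/Col6a1 lies between 0.662 and 1.88 in Vehicle and between 0.160 and 0.337 in Aldara.

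Among the fibril-associated collagens, which decorate the surface of fibrils, 1 of 7 tested genes fell. Col16a1 measured 156, 109, 95.8 and 136 CPM in the Vehicle libraries and 81.0, 68.6, 71.2 and 53.5 CPM in the Aldara libraries, with no overlap. It fell by 0.86 on the log2 scale (SE 0.17, adjusted p = 0.0108). Col14a1, which binds decorin on fibrils, measured 48.7 ± 14.2 and 27.9 ± 7.58 CPM (−0.80, SE 0.25, adjusted p = 0.0709, and 0.0248 with the replicate block). Col9a2, a chain of type IX collagen, measured 40.6 ± 8.69 and 30.04 ± 3.51 CPM (adjusted p = 0.0820). Col9a1, of the same type, measured 13.3 ± 4.20 and 8.93 ± 1.38 CPM (−0.58, SE 0.21, adjusted p = 0.104). Col9a3, Col12a1 and Col20a1 had log2 fold changes between 0.09 and 0.23, and of these Col9a3 shares 6.07% of its exon bases with Tcfl5. The ratio of Col9a2 to Col9a3 per kilobase lay between 1.71 and 2.24 in Vehicle and between 1.17 and 1.56 in Aldara.

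The anchoring, multiplexin and network-forming collagens moved in different directions. Col7a1, which forms the fibrils that anchor epithelium to the tissue beneath, measured 64.3, 58.9, 64.1 and 89.1 CPM in the Vehicle libraries and 34.8, 38.4, 35.7 and 27.1 CPM in the Aldara libraries. The groups did not overlap, and it fell by 1.02 on the log2 scale (SE 0.15, adjusted p = 0.00313), the smallest p of the members. Col18a1, the precursor of endostatin, measured 56.9 ± 19 and 36.8 ± 9.05 CPM (−0.63, SE 0.25, adjusted p = 0.145, and 0.0279 with the replicate block). Col15a1, the other multiplexin, measured 32.9 ± 13 and 22.8 ± 6.02 CPM (adjusted p = 0.293).

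Col8a1 (ENSMUSG00000068196) went the other way. It measured 140.4, 142, 135 and 147 CPM in the Vehicle libraries, which hardly varied, and 336, 235, 248 and 164 CPM in Aldara, where replicate 1 was the highest and replicate 4 the lowest. All Aldara libraries lay above all Vehicle libraries. The mean rose from 141 ± 4.87 to 246 ± 70.8 CPM (0.80 on the log2 scale, SE 0.18, adjusted p = 0.0181). The call was lost without Vehicle replicate 1, Vehicle replicate 2 or Aldara replicate 3 (between 0.00524 and 0.0536 over the 8 left-out libraries). Col8a2, the chain known to share a network with Col8a1, stood at 4.35 ± 1.29 and 3.89 ± 0.979 CPM and did not pass the test (−0.15, SE 0.27, adjusted p = 0.787).

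None of the 4 tested transmembrane and other collagens passed edgeR, DESeq2 or voom, and 1 had an unadjusted p under 0.05 in edgeR. Col17a1, a hemidesmosome collagen of basal epithelial cells, measured 67.1 ± 2.8 CPM in the Vehicle and 55.1 ± 12.5 CPM in the Aldara libraries (−0.28, SE 0.15, adjusted p = 0.257). Col23a1, Col25a1 and Col28a1 stayed below 3 CPM in every library.

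The proteoglycans and fibril-binding proteins were the group with the highest share of falls, 3 of 4. Dcn (ENSMUSG00000019929) encodes decorin, a small leucine-rich proteoglycan that binds collagen fibrils. It measured 50.5, 35.1, 31.2 and 33.6 CPM in the Vehicle libraries and 25.7, 20.5, 24.1 and 17.2 CPM in the Aldara libraries, with no overlap, and fell by 0.78 on the log2 scale (SE 0.17, adjusted p = 0.0167). Lum encodes lumican, a relative of decorin encoded on the same stretch of chromosome 10. It measured 6.00, 2.56, 3.28 and 1.89 CPM in the Vehicle libraries and 1.49, 0.996, 0.741 and 0.373 CPM in the Aldara libraries, which in the lowest library was 7 counts, and the groups did not overlap. Lum fell by 1.90 (SE 0.44, adjusted p = 0.0216), and this call did not hold without Aldara replicate 2 or 3 (adjusted p between 0.00946 and 0.0728 over the 8 left-out libraries). The ratio of Dcn to Lum per kilobase, between 3.52 and 7.44 in Vehicle and between 7.22 and 19.3 in Aldara, overlapped.

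Dpt, dermatopontin, which binds decorin, fell from 7.34 ± 3.16 to 3.27 ± 0.879 CPM (−1.15, SE 0.31, adjusted p = 0.0358). Its groups overlapped, and the call was lost with limma voom, without Vehicle replicate 1, 2 or 3 and without Aldara replicate 1, 2 or 4 (adjusted p between 0.0188 and 0.0970 over the 8 left-out libraries). Vcan, versican, a large proteoglycan of loose matrix, did not overlap between the groups but missed the threshold at 10.3 ± 3.42 and 6.31 ± 0.74 CPM (−0.71, SE 0.23, adjusted p = 0.0706).

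Among the microfibril and matricellular glycoproteins 2 of 4 fell. Sparc, which binds collagen and is made by many cell types, measured 319, 244, 218 and 259.8 CPM in the Vehicle libraries and 183, 129.5, 171 and 130.2 CPM in the Aldara libraries. The groups did not overlap, and it fell by 0.76 on the log2 scale (SE 0.15, adjusted p = 0.0102). Fn1 encodes fibronectin, an adhesive glycoprotein that macrophages make too. It measured 134, 177, 89.8 and 77.3 CPM in the Vehicle libraries and 62.7, 44.7, 67.4 and 50.9 CPM in the Aldara libraries and fell by 1.08 (SE 0.26, adjusted p = 0.0286). The call on Fn1 was lost without Vehicle replicate 1, and likewise without Aldara replicate 2, 3 or 4 (adjusted p between 0.0194 and 0.0920 over the 8 left-out libraries) and with no filter on low counts. Fbn1 and Mfap5, of elastic microfibrils, did not pass the test (adjusted p = 0.139 and 0.0821) and passed it with the replicate block (0.0465 and 0.0430). Of the exon bases of Fbn1, 20.1% are shared with Gm9913, whose reads cannot be told apart from it without strand.

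The fibroblast surface and secreted genes divided. Gsn encodes gelsolin, an actin-severing protein that is abundant in fibroblasts and present in many other cells. It measured 1217, 782, 375 and 443 CPM in the Vehicle libraries and 282, 261, 273 and 271 CPM in the Aldara libraries. The Vehicle libraries spread widely and the Aldara libraries hardly differed, with an SD of 386 and 8.6 CPM. Gsn fell by 1.37 on the log2 scale (SE 0.33, adjusted p = 0.0307), and this call did not hold without Vehicle replicate 2 or any 1 of the 4 Aldara libraries (adjusted p between 0.0192 and 0.0896 over the 8 left-out libraries) and with no filter. Serpinf1, the secreted factor PEDF, fell from 9.36 ± 3.75 to 3.67 ± 1.65 CPM (−1.34, SE 0.35, adjusted p = 0.0351), and this call did not hold without Vehicle replicate 1 or 2, and likewise without Aldara replicate 2, 3 or 4 (between 0.00622 and 0.0985).

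Pdgfra, the receptor that marks fibroblasts and adipocyte precursors, measured 8.25, 7.996, 5.56 and 6.17 CPM in the Vehicle libraries and 6.66, 8.25, 6.22 and 3.94 CPM in the Aldara libraries. The groups overlapped, and Pdgfra differed by −0.15 on the log2 scale (SE 0.23, adjusted p = 0.740). Pi16, a marker of fibroblast progenitors, measured 5.74 ± 2.72 and 2.23 ± 1.26 CPM (−1.35, SE 0.41, adjusted p = 0.0648). Clec3b, tetranectin, measured 5.20 ± 3.41 and 2.42 ± 1.41 CPM (−1.08, SE 0.49, adjusted p = 0.198). Both passed with the replicate block (adjusted p = 0.00195 and 0.00597). Col6a2, Col14a1, Col18a1, Fbn1, Mfap5, Pi16 and Clec3b are the 7 members that missed the threshold and passed it with the block, and they are named here for that reason. With DESeq2, 5 of them passed too, namely Col6a2, Col14a1, Col18a1, Mfap5 and Pi16. Col11a1, Vcan and Col9a2, which did not pass with the block, also passed with DESeq2 (adjusted p = 0.0186, 0.0221 and 0.0495). Without Vehicle replicate 3 Fbn1 passed as well, with an adjusted p of 0.0213.

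Low members were left out of the test. The 6 that passed the rule of 10 counts but not the filter were Col2a1, Col24a1, Col6a5, Col10a1, Col13a1 and Col26a1, all below 2 CPM in every library. Col26a1, with 13 counts, and Col24a1, with 16, stood just inside the rule, and Col19a1, with 6 counts, and Col22a1, with 2, just outside it. Col6a5 had 10, 5, 6 and 4 counts in Vehicle and 1 count in each Aldara library.

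Ordered by level per kilobase of exon in Vehicle, Gsn came first with 223 ± 122 CPM per kilobase, followed by Sparc with 68.7 ± 11.4, Col4a1 with 42.5 ± 10.3 and Col4a2 with 34.3 ± 7.59. Col16a1 (18.4 ± 4.0), Col8a1 (18.03 ± 0.622) and Col4a5 (17.9 ± 3.37) came next and did not differ beyond their spread. Col3a1 stood at 12.6 ± 7.20 and Col1a1 at 11.2 ± 7.10 CPM per kilobase. In Aldara, Gsn (86.2 ± 2.72) and Sparc (40.5 ± 7.32) remained at the head, and Col8a1 (31.4 ± 9.04) stood before Col4a1 (21.9 ± 1.73), Col4a2 (21.5 ± 1.63) and Col4a5 (18.5 ± 1.97). Col3a1 stood at 2.87 ± 1.00 and Col1a1 at 3.66 ± 1.37 CPM per kilobase.

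The libraries of a group were not alike. Vehicle replicate 1 held the highest level of 30 of the 49 tested members, and of 15 of the 19 that fell, whereas it was the highest library for 2900 of the 16780 genes tested. Aldara replicate 4 held the lowest level of 31 of the 49 members and was the lowest library for 3130 of all genes tested. In the map of members by library, Vehicle replicate 1 is the reddest column for the fibrillar and fibroblast genes, and Col4a5, Col4a6, Col12a1 and Col11a2 are nearly without colour throughout.

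**Figure D5:**
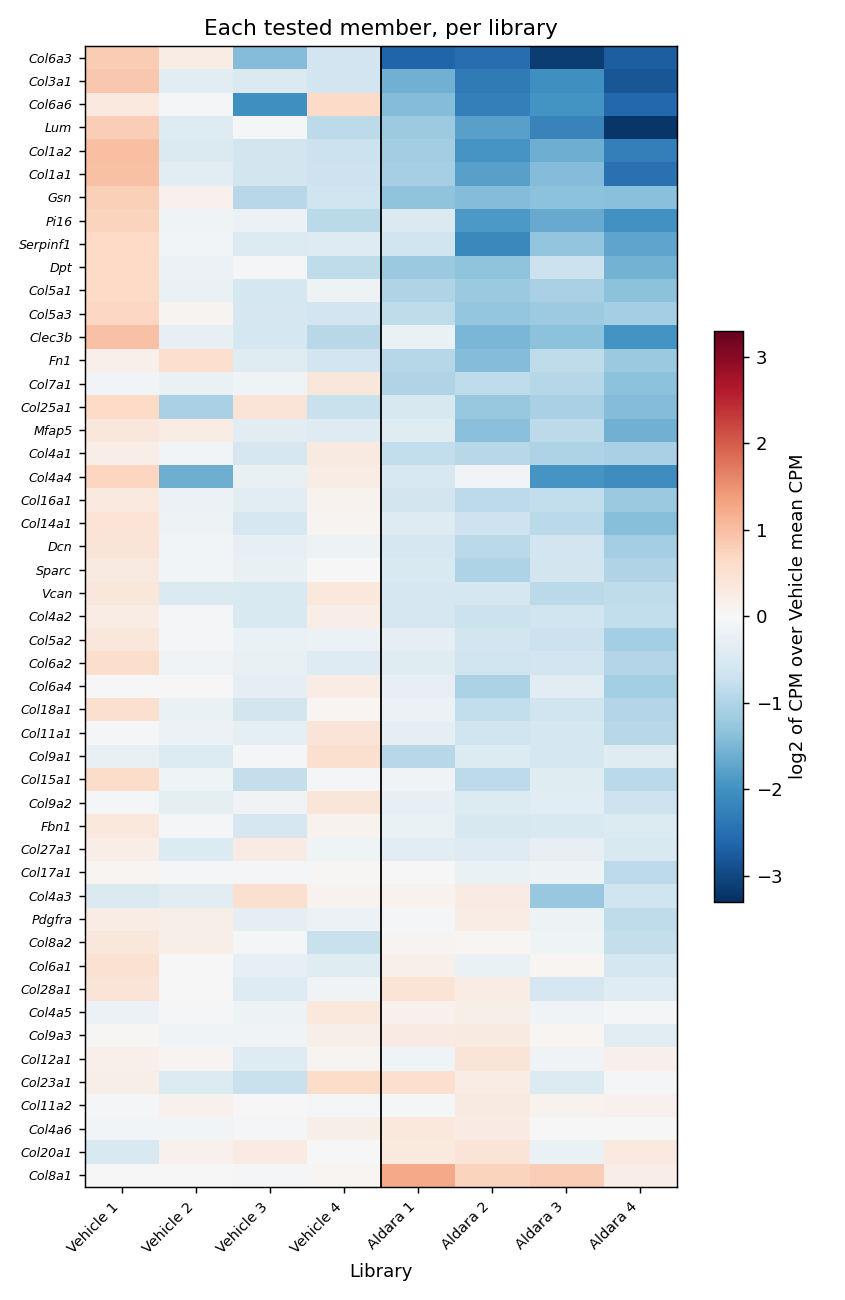
Level of each of the 49 tested members in each library as log2 of its CPM over its Vehicle mean (colour), with members ordered by fold change from Col6a3 at the top to Col8a1 at the bottom. Vehicle replicate 1 is highest for 30 members and Aldara replicate 4 lowest for 31.

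Other genes of collagen making and binding were described from lists by function. Of 29 tested genes of collagen processing and crosslinking, 1 fell and the rest did not pass the test, with a median log2 fold change of −0.26. The gene that fell was P4ha2, a prolyl 4-hydroxylase that modifies collagen chains, from 39.8 ± 7.79 to 15.4 ± 4.44 CPM (−1.37, SE 0.21, adjusted p = 0.00545). With the replicate block 5 genes of this list fell. Of 24 tested genes of a second fibroblast and matrix list, which shares Mfap5 with the members, 5 fell, with a median of −0.57. With the block 11 did, Mfap5 among them, and with 1 library left out between 2 and 7 did. Eln, elastin, fell from 181 ± 12.7 to 108 ± 12.7 CPM (−0.74, SE 0.10, adjusted p = 0.00244), and Mgp, an inhibitor of calcification, by 0.63 (SE 0.13, adjusted p = 0.0119). Postn, periostin, fell by 0.59 (SE 0.15, adjusted p = 0.0285), and this call did not hold without any 1 of the 4 Vehicle libraries (between 0.0203 and 0.0746 over the 8 left-out libraries).

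Of the 15 laminin and other basement membrane genes, none passed edgeR or voom, although all 15 had negative log2 fold changes, with a median of −0.20. In this list 6 genes had an unadjusted p under 0.05, 2 fell with DESeq2 and 3 with the replicate block. Lama2, a laminin chain of muscle and nerve, had the smallest p, at 3.88 ± 1.57 and 1.99 ± 0.409 CPM (−0.95, SE 0.30, adjusted p = 0.0679, and 0.0373 with the block). Of 12 tested collagen receptors and uptake genes 2 rose, with a median of −0.01. With the replicate block, and also with DESeq2, 4 rose and 1 fell, and with 1 library left out between 1 and 3 rose. Cd36, a scavenger receptor that binds collagen, rose by 0.83 (SE 0.15, adjusted p = 0.00716). Lair1, an inhibitory collagen receptor of leukocytes, rose by 1.15 (SE 0.27, adjusted p = 0.0222), a call lost with voom and without Vehicle replicate 1, 2 or 4, and likewise without Aldara replicate 2, 3 or 4 (between 0.000912 and 0.0715).

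Of 18 genes of TGF-beta signalling, a pathway that drives collagen genes in fibroblasts, 1 rose, with a median of 0.07. Tgfb1, which leukocytes also make, went from 114 ± 11.1 to 171 ± 43.6 CPM (0.59, SE 0.16, adjusted p = 0.0468). The call was lost with the replicate block (adjusted p = 0.0859), with voom, with RLE scaling, without any 1 of the 4 Vehicle libraries and without Aldara replicate 3 or 4 (between 0.0109 and 0.148 over the 8 left-out libraries). With the block 3 genes of this list rose and 2 fell.

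Markers of the other cell types that make collagen were measured beside the members, and their part in the result was not tested. None of the 9 endothelial markers passed edgeR, DESeq2 or voom or had an unadjusted p under 0.05, and they summed to between 461 and 675 CPM in Vehicle and between 399 and 715 CPM in Aldara. Pecam1, an endothelial adhesion molecule, measured 116 ± 18.7 and 129 ± 29.3 CPM (adjusted p = 0.639). Of 8 pericyte and smooth muscle markers 1 fell, Rgs5, from 56.0 ± 11.1 to 31.7 ± 6.08 CPM (−0.82, SE 0.17, adjusted p = 0.0121), and the list summed to between 353 and 525 CPM and between 302 and 417 CPM. None of the 9 myoepithelial markers passed edgeR or voom, although the unadjusted p of 1 was under 0.05 and 1 fell with DESeq2, and Krt14, a basal keratin, measured 187 ± 24.3 and 203 ± 23.8 CPM (adjusted p = 0.579). Their sum lay between 1193 and 1640.2 CPM in Vehicle and between 888 and 1452 CPM in Aldara.

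Of the 10 luminal epithelial markers 1 fell, Areg, a growth factor of the EGF family (−2.32, SE 0.36, adjusted p = 0.00623). With the block, Krt19 and Prlr fell as well (adjusted p = 0.0118 and 0.0394) and Cldn4 rose (0.0245), and with DESeq2 3 of the list fell. Krt8, a keratin of simple epithelium, measured 4143 ± 935 and 4175 ± 586 CPM (adjusted p = 0.978). None of the 5 tested Schwann cell markers passed edgeR, DESeq2 or voom or had an unadjusted p under 0.05, and the list summed to between 183.5 and 253 CPM in Vehicle and to between 174 and 261 CPM after Aldara. Of 9 adipocyte markers 3 rose, and their sum lay between 420.1 and 466 CPM in Vehicle and between 333 and 473 CPM in Aldara. Adipoq, adiponectin, a defining marker of mature adipocytes, stood at 0.569 ± 0.113 and 1.25 ± 0.323 CPM (1.14, adjusted p = 0.0356), a call lost in 7 of the 8 fits that left 1 library out, the exception being Aldara replicate 2 (adjusted p between 0.0395 and 0.0954).

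Of the 13 macrophage markers 8 rose and 0 fell, and 0 were lower at an unadjusted p under 0.05. With the block 12 rose, and with 1 library left out between 4 and 12, the fewest without Aldara replicate 4. Adgre1, which encodes F4/80, rose from 82.5 ± 20.4 to 967 ± 476 CPM. Its log2 fold change of 3.55 was the largest of the list, whose median was 1.38. The 5 markers that did not pass the test included Fcgr1, which encodes CD64, at 19.7 ± 1.85 and 26.5 ± 12.3 CPM (adjusted p = 0.436). The 9 lymphocyte markers summed to between 0.548 and 1.36 CPM in Vehicle and between 4.40 and 10.3 CPM after Aldara. The 1 that could be tested, Cd79b, a B cell receptor subunit, rose from 0.408 ± 0.141 to 5.95 ± 2.71 CPM (3.84, SE 0.40, adjusted p = 0.000956), while Cd3e, a T cell receptor subunit, had 4 counts in all.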

How the data were processed

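RNA of 8 libraries (4 Vehicle, 4 Aldara) was analysed from the table of read counts per gene that the authors deposited. Per the submitters' processing notes, the tools were HISAT2 2.0.5, featureCounts 1.5.0-p3 and DESeq2, with build mm10. Settings: not given in the sources used here. Of the 56748 gene IDs, 52073 (91.8%) had a symbol in the gene name table. Counts were tested with edgeR 4.0.16 in R 4.3.3 (filterByExpr, TMM scaling, robust quasi-likelihood F test, Benjamini-Hochberg adjustment over 16780 genes, threshold 0.05), and the SE is the log2 fold change divided by the root of F. Lengths are merged GENCODE M21 exons. The script was tested on simulated data. Correlations of deviations from the group means lay between 0.108 and 0.228 in the 4 same-numbered pairs of libraries. In the differently numbered pairs they lay between −0.216 and 0.0819. The labels do not say how the numbers were assigned. The numbers were therefore used as a block in an alternative fit only, and the main test has no block. No 2 libraries of a group agreed within counting noise. Alternatives were DESeq2 1.42.0, voom from limma 3.58.1, other scalings, no filter beyond 10 counts, the replicate block and each library left out.

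The members and lists were chosen with earlier results of these data known. Named were Col3a1, Dcn, Lum, each member past the threshold, the 2 members of highest level per kilobase in each role group, members beside the rule of 10 counts, up to 3 called genes of each other list and defining markers. Genes named beyond this rule were chosen after their values were seen. For 1 marker of that rule the result is not reported here.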

Additional observations from a re-analysis of the deposited data

Results flagged for a closer look

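The levels of the 49 tested members were examined for a library far from the rest of its group. This makes 98 groups of 4 libraries, of which 4 were flagged. Chance alone is set to give about 1 group in 20 where groups are independent. The 98 groups come from the same 8 libraries and are not independent, so setting 4 of 98 against that rate decides nothing. In Vehicle replicate 1, Col3a1 stood at 229 CPM, with 96.6 CPM in the nearest Vehicle library and 79.8 CPM in the lowest. In the same library Col1a1 stood at 143 CPM, against 56.9 and 46.0 CPM, and Col1a2 at 125 CPM, against 45.1 and 38.3 CPM. Pi16 stood at 4.10 CPM in Aldara replicate 1, against 1.81 CPM in the nearest Aldara library and 1.44 CPM in the lowest. The values without Vehicle replicate 1 are given with each collagen above.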

How the results depend on the processing

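Counts of members that fell were 27 with DESeq2, 16 with limma voom, 19 with RLE or total-count scaling, 20 with upper-quartile scaling, 15 with no filter and 26 with the replicate block, against 19, and 1 member rose in each. Among all genes, 647 of 16780 fell in the main fit and 1154 of 18133 with DESeq2. Falls numbered 558 with voom, 696 with RLE, 628 with total-count and 990 with upper-quartile scaling. They numbered 571 of 23810 with no filter and 1030 with the block. Genes that rose numbered 1471 with DESeq2 and 1546 with the block, against 1171. With 1 library left out, between 9 and 22 members fell and between 0 and 1 rose, and among the collagen genes between 6 and 14 fell and between 0 and 1 rose. Over all genes, between 323 and 664 fell and between 629 and 1405 rose in those fits. In the 5 pathway and fibroblast lists 3 genes rose and 6 fell. These became 6 and 16 with DESeq2 and 7 and 22 with the replicate block, while 1 rose with voom and 11 fell with upper-quartile scaling. With 1 library left out, between 1 and 4 rose and between 3 and 13 fell. In the marker lists 2 genes fell, against 5 with DESeq2, 4 with upper-quartile scaling and 7 with the block. With 1 library left out, between 2 and 4 fell, and between 8 and 16 rose against 12. With the replicate number as a block, calls were gained on the 7 members given above, Lama2, Krt19, Prlr and Cldn4. The call on Tgfb1 was lost, and no other call on a gene named here changed.

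Among the genes named here, the sign turned for 7, none of them called. Krt8 (log2 fold change 0.01) was −0.0042 with DESeq2, −0.0023 with RLE scaling, −0.041 with upper-quartile scaling and between −0.10 and 0.15 with 1 library left out. With 1 library left out, Col6a1 (−0.11) lay between −0.23 and 0.10, positive without Vehicle replicate 1. Col23a1 (0.12) lay between −0.074 and 0.41, negative without Vehicle replicate 3 or Aldara replicate 1. Over the fits with 1 library left out, Col4a5 (0.04) lay between −0.020 and 0.18, Col12a1 (0.11) between −0.023 and 0.18, Col8a2 (−0.15) between −0.33 and 0.00028 and Col28a1 (0.02) between −0.17 and 0.18. With upper-quartile scaling Col4a5 was −0.0098 and Col28a1 −0.033. Col28a1 was −0.0018 with DESeq2, −0.00033 with RLE scaling and −0.027 with the block. The cause of these differences was not tested. Depth was not tested as a limit. The 6 members that did not pass the filter on low counts could not be tested.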
